A study of Mus musculus with 7 samples.

Results

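Fatty acid uptake and oxidation was followed through 38 listed genes, chosen by name and all present on the array as 52 of its 55670 probes. The array named 34792 genes in all. Expression was measured on Agilent 8x60K arrays, 1 for each of 7 mouse samples, with Cy3 as the single dye. The study set cardiac mesenchymal progenitors (CMPs), cultured cells raised from adult heart tissue of strain C57BL/6, beside whole heart RNA as a positive control. CMPs grew on collagen I in DMEM/F12 with serum at 10% and the fibroblast growth factor bFGF at 40 ng/ml. Their source was the atrial or ventricular tissue of living mice, or such tissue kept at 4 °C for 24 h after death, and each of these 4 sources had 1 array. The adult heart was 1 array of purchased total RNA whose strain is not in the labels. The fetal hearts were taken at embryonic day 16.5 on C57BL/6, 1 from wild type and 1 from C57BL/6-Tg(Myh6-EGFP)MG2, in which the Myh6 promoter, active in cardiomyocytes, drives a green fluorescent protein. Nothing in the labels says that arrays of a group came from separate cultures or animals. The main fit took its spread from the 4 CMP arrays, beyond their source state and chamber terms, and from the fetal pair, which differs in genotype. This spread was shared over genes, the 1 adult array added nothing to it, and it may be technical.

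Long-chain fatty acids are the main fuel of the adult heart, and the heart's capacity to burn them is known to mature around birth. Lipoprotein lipase frees them at the vessel wall, CD36 and transport proteins take them up, binding proteins carry them in the cytosol, and acyl-CoA synthetases activate them. The carnitine shuttle then brings them into mitochondria, where acyl-CoA dehydrogenases and the other enzymes of the oxidation spiral shorten them and pass electrons through the electron transfer flavoprotein to the respiratory chain. The nuclear receptors PPAR and ERR, with the PGC-1 coactivators, are the known transcriptional regulators of this pathway.

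A gene's value below is the log2 processed signal of its brightest probe minus the array's 75th percentile, so 0 is the signal at that percentile. Values compare arrays for 1 gene and do not rank genes against each other. Sentences give the postmortem CMPs first (atrial, ventricular), the living CMPs next (atrial, ventricular), then adult heart, then wild-type and transgenic fetal heart. A probe counts as dim where the scanner flagged it as not well above background. Differences are log2 with their standard error, from 1 limma fit to all 7 arrays, and a gene is called where its Benjamini-Hochberg adjusted p over all genes tested is under 0.05. The mean of CMPs rests on 4 arrays, that of fetal heart on 2, and adult heart on 1 array that was assumed to vary like the others.

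The share of probes well above background ran from 46.5% to 52.5% over the arrays, and no spot was saturated. All 7 arrays shared 1 slide and 1 scan, with CMPs in slide row 1 and hearts in row 2, so slide row and the contrast of CMPs with hearts cannot be told apart. The postmortem atrial array stood apart: it was at least 2-fold away from each other CMP array for 4685 to 5297 of 24887 genes, against 2402 to 2721 among the other 3. Of the 11 stromal markers, all were well above background on every array, and their summed signal was 2000 to 2520 times the 75th percentile in CMPs, 669 in adult heart and 633 to 725 in fetal heart. Of the 13 cardiomyocyte markers, 2 to 4 were measured on each CMP array, and 8 (Myh6, Actc1, Tnni3, Myl3, Pln, Ttn, Mb and Ckm) were dim on all 4. Their summed signal was 1.53 to 17.5 in CMPs against 10200 in adult and 3550 to 6400 in fetal heart. Most of the CMP sum came from Tnnt2, the only 1 of the 13 measured on all 4 CMP arrays (4.02, 2.73, 4.10 and 0.11). Adipocyte markers summed to 0.143 to 0.331 in CMPs, 39.9 in adult and 1.48 to 3.00 in fetal heart. In the hearts Cidea was the brightest of them (5.16 in adult, 0.46 and 1.47 in fetal heart) and gave most of these sums. It was the only 1 of the 8 that could be tested against fetal heart, so the list as a whole was not compared there. Endothelial markers summed to 20.7 to 44.3 in CMPs, 231 in adult and 105 to 119 in fetal heart. Macrophage and leukocyte markers summed to 48.3 to 72.3, 137 and 38.2 to 43.4, and pericyte and smooth muscle markers to 157 to 341, 307 and 398 to 643. Bright markers dominate such sums, as Itgam (5.44 to 6.01) did in CMPs. Against fetal heart, 6 of 10 macrophage and leukocyte markers tested were called lower in CMPs and 2 higher (median -1.72). For pericyte and smooth muscle markers these counts were 6 and 0 of 8 (median -3.11). Against adult heart they were 9 and 0 of 10 (median -4.22) and 5 and 1 of 9 (median -4.66). Of all genes, 25.2% and 22.8% were lower and higher than fetal heart, and 24.6% each for adult heart. Erythroid markers summed to 0.256 to 0.289 in CMPs, 1290 in adult and 2060 to 3180 in fetal heart. Several of these signals move with the contrast of CMPs and heart, and their part in the differences below was not tested; in bulk RNA, fewer cells of a type and less RNA per cell cannot be told apart.

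**Figure D1:**
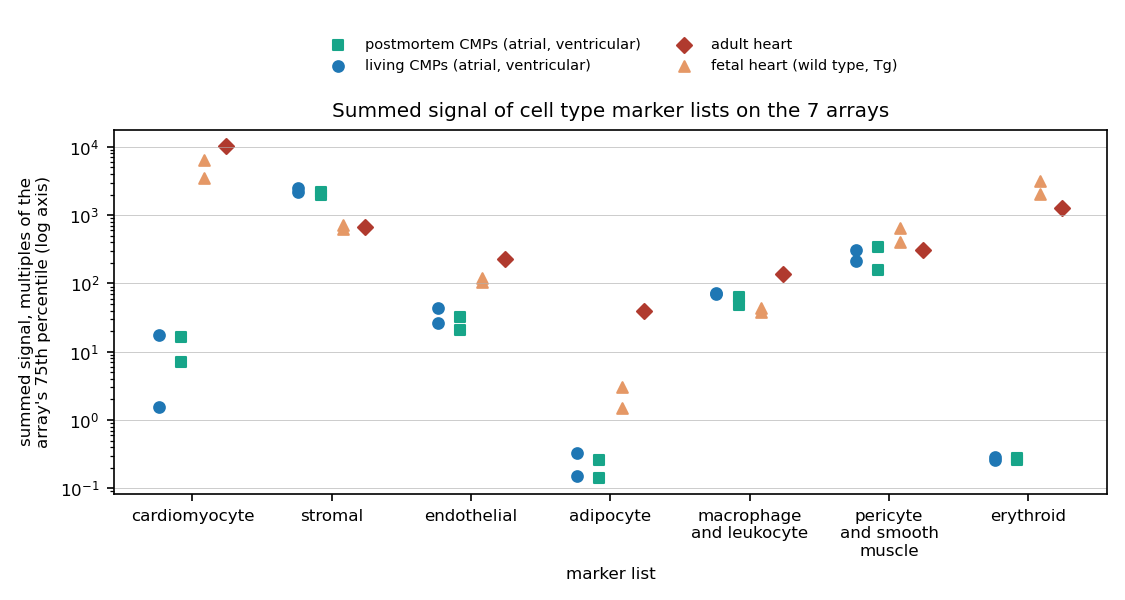
Summed signal of 7 marker lists, in multiples of each array's 75th percentile on a log axis, with 1 point per array. Cardiomyocyte, adipocyte and erythroid summed signal lies lower on the 4 CMP arrays than on the 3 heart arrays, and stromal summed signal lies higher. The adipocyte sum of the hearts rests mostly on Cidea.

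All 38 genes were well above background on the 3 heart arrays. In CMPs, 32 were measured on all 4 arrays, Ucp3 and Esrrg on 3, Ppargc1a on 2, and Cd36, Cpt1b and Ppargc1b on none. Of the 32, the range over the 4 CMP arrays was under 1 log2 unit for 23 and under 0.5 for 14, with a median range of 0.55. Between the postmortem atrial array and each other CMP array, 7 to 10 of the 38 genes were at least 2-fold apart. The share among all genes was 18.8% to 21.3%. Among the other 3 arrays these were 2 to 4 genes, beside 9.65% to 10.9%. Members were thus apart about as often as all genes.

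**Figure D2:**
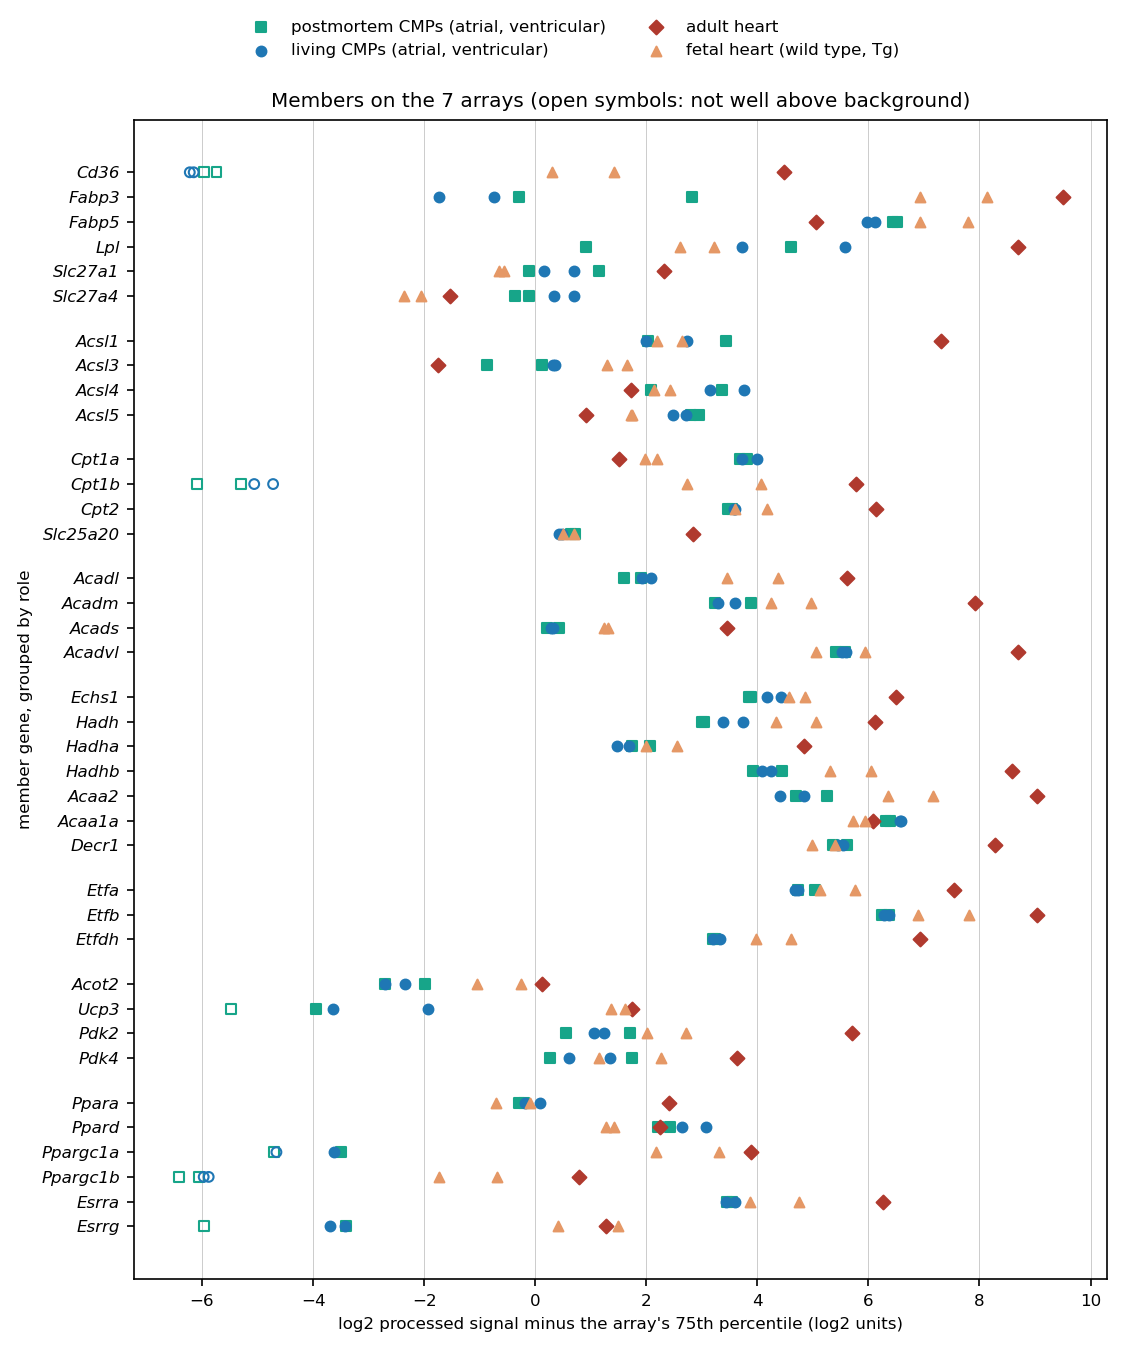
Value of each of the 38 genes on each of the 7 arrays (log2 processed signal minus the array's 75th percentile), grouped by role; open symbols mark arrays where the probe was not well above background. Adult heart is highest for most oxidation enzymes, while Cpt1a and Slc27a4 are higher on all 4 CMP arrays than on any heart array and Cd36, Cpt1b and Ppargc1b are dim in all CMPs.

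Against adult heart, 30 of the 38 genes were lower in CMPs and 6 were higher, with a median difference of -2.80. Over the 20279 genes tested, 24.6% were called lower and 24.6% higher, with a median of 0.00. The exceptions to the lower levels were Fabp5, Slc27a4, Acsl3, Acsl4, Acsl5 and Cpt1a, which were higher in CMPs, and Acaa1a and Ppard, which did not pass. Against fetal heart, 20 of the 38 were lower in CMPs and 7 higher, with a median of -0.88. That median was -0.53 without the transgenic and -1.26 without the wild-type fetal array, beside 0.01 and -0.13 for all genes. The share of all 20055 genes tested was 25.2% lower and 22.8% higher, with a median of -0.01. The count of higher members thus lay near the share among all genes and that of lower members lay above it. Cd36, Cpt1b, Ppargc1b, Ppargc1a, Ucp3 and Esrrg were dim on some or all CMP arrays. They entered both tests only through the hearts and count among the lower members. A filter that asked both sides to be well above background tested 32 members. It called 15 lower and 7 higher than fetal heart (median -0.64), beside 3459 and 4202 of 16836 genes. Against adult heart it called 24 and 6 (median -2.73), beside 3077 and 4246 of 16321 genes. Without the postmortem atrial array, the members' median was -2.82 against adult and -0.91 against fetal heart, beside -0.01 and -0.02 for all genes. These comparisons share the CMP arrays, so their values stand side by side below and do not support each other. A scaling over probes that were well above background on all arrays moved the median of all genes to -0.18 against fetal and -0.16 against adult heart, and no called member changed direction under it.

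**Figure D3:**
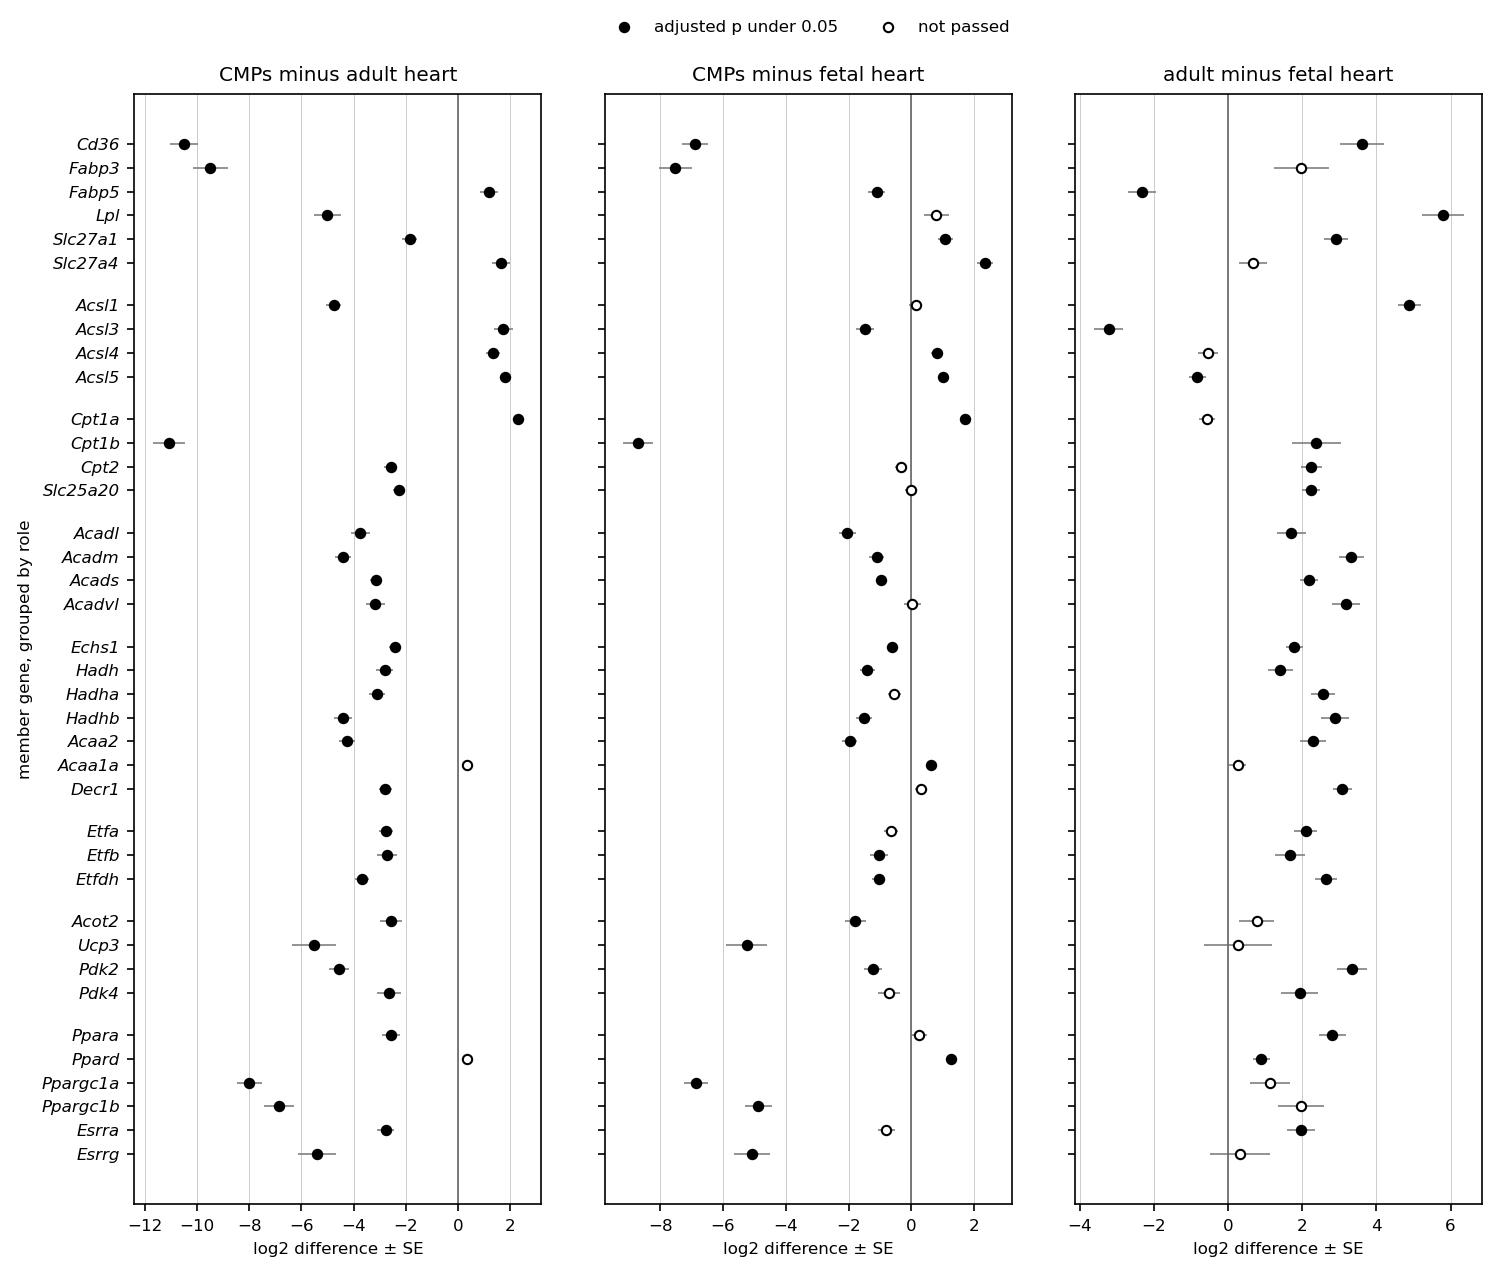
Log2 difference ± SE of each of the 38 genes in CMPs against adult heart, CMPs against fetal heart, and adult against fetal heart, with filled points for an adjusted p under 0.05. Cd36, Cpt1b and Ppargc1b are plotted at their measured differences although all 4 CMP values are dim, and most oxidation enzymes lie further below adult than below fetal heart.

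Uptake genes divided in both directions. Cd36, the membrane fatty acid translocase, with its probe at mm9 chr5:17288600-17288659, had values of -5.74, -5.96, -6.22 and -6.15 on the CMP arrays, 4.48 in adult heart, and 0.30 and 1.42 in fetal heart. The CMP values were all dim and far below both kinds of heart. Because only a bound exists there, the brighter group's mean was set against the lowest signal measured above background: Cd36 was at least 508-fold lower in CMPs than in adult heart (adjusted p = 0.000296) and at least 41.3-fold lower than in fetal heart (adjusted p = 0.000264). Fabp3, the heart-type binding protein, had values of 2.83, -0.29, -0.75 and -1.74 in CMPs, 9.50 in adult heart, and 6.92 and 8.14 in fetal heart. It was measured on every array without overlap of CMPs and hearts, by -9.49 ± 0.68 against adult (adjusted p = 0.000553) and -7.52 ± 0.52 against fetal heart (adjusted p = 0.000385).

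Fabp5, the epidermal-type binding protein, had values of 6.52, 6.45, 6.11 and 5.98 in CMPs, 5.06 in adult heart, and 6.93 and 7.80 in fetal heart. CMPs lay between the hearts, with differences of 1.21 ± 0.35 from adult (adjusted p = 0.0337, and 0.0656 with no variance trend) and -1.10 ± 0.27 from fetal heart (adjusted p = 0.0202). Slc27a4, a fatty acid transport protein with acyl-CoA synthetase activity, had values of -0.36, -0.12, 0.69 and 0.34 in CMPs, -1.54 in adult heart, and -2.36 and -2.05 in fetal heart. All CMP values exceeded all heart values, with 3.19-fold higher signal than adult (adjusted p = 0.0105) and 5.07-fold higher than fetal heart (adjusted p = 0.00145). Its relative Slc27a1 had values of 1.14, -0.12, 0.70 and 0.16 in CMPs, 2.32 in adult heart, and -0.65 and -0.56 in fetal heart. It was 3.59-fold lower in CMPs than in adult heart (adjusted p = 0.00487) and 2.11-fold higher than in fetal heart (adjusted p = 0.0123), the latter not passing without either fetal array or without the chamber term (adjusted p 0.0534 to 0.0652).

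Lpl, the secreted lipase that frees fatty acids from lipoproteins, was the least even uptake gene in CMPs. Its values were 0.91, 4.60, 3.73 and 5.58 in CMPs, 8.70 in adult heart, and 2.60 and 3.22 in fetal heart. The postmortem atrial array lay below both fetal hearts and the other 3 CMP arrays above them. Lpl was 32.0-fold lower in CMPs than in adult heart (adjusted p = 0.00127), and the difference from fetal heart of 0.79 ± 0.40 did not pass (adjusted p = 0.158).

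The 4 long-chain acyl-CoA synthetases differed by isoform. Acsl1, the main isoform of heart, had values of 3.44, 2.03, 2.73 and 1.99 in CMPs, 7.30 in adult heart, and 2.19 and 2.65 in fetal heart. CMP and fetal values overlapped (0.13 ± 0.22, adjusted p = 0.661), and adult heart was 27.0-fold above CMPs (adjusted p = 0.000372). Acsl4, which prefers arachidonic acid, had values of 2.08, 3.37, 3.14 and 3.76 in CMPs, 1.73 in adult heart, and 2.14 and 2.42 in fetal heart. It was higher in CMPs than in adult heart by 1.35 ± 0.26 (adjusted p = 0.00885), which did not pass without the chamber term (adjusted p = 0.0698), and higher than in fetal heart by 0.81 ± 0.20 (adjusted p = 0.0212), although the postmortem atrial value lay below both fetal values. The call against fetal heart was lost without the chamber term or without either fetal array (adjusted p 0.0532 to 0.141).

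Acsl5, an isoform of mitochondria and endoplasmic reticulum, had values of 2.80, 2.95, 2.71 and 2.48 in CMPs, 0.91 in adult heart, and 1.73 and 1.75 in fetal heart. All CMP values were above all heart values, by 1.82 ± 0.21 over adult (adjusted p = 0.00173) and 0.99 ± 0.16 over fetal heart (adjusted p = 0.00498). Acsl3, an isoform of the endoplasmic reticulum and lipid droplets, had values of -0.86, 0.13, 0.36 and 0.32 in CMPs, -1.75 in adult heart, and 1.29 and 1.65 in fetal heart. Like Fabp5 it lay between the hearts, with differences of 1.74 ± 0.37 from adult (adjusted p = 0.0125) and -1.48 ± 0.28 from fetal heart (adjusted p = 0.0089); the second call was lost without the transgenic fetal array (adjusted p = 0.0665).

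The carnitine palmitoyltransferase 1 isoforms, which make acylcarnitine at the outer mitochondrial membrane, went opposite ways. The file annotation places their probes on mouse build mm9 at chr19:3385374-3385433 for Cpt1a and chr15:89246836-89246895 for Cpt1b. Cpt1a, the isoform of liver and many other tissues, had values of 3.82, 3.69, 3.99 and 3.72 in CMPs, 1.51 in adult heart, and 1.97 and 2.19 in fetal heart. The CMP values were within 0.30 of each other and above every heart. Cpt1a was 4.91-fold higher in CMPs than in adult heart (adjusted p = 0.000792) and 3.30-fold higher than in fetal heart (adjusted p = 0.000712), and its other probe gave differences of 0.82 and 1.28. Cpt1b, the muscle isoform, had values of -6.09, -5.30, -4.72 and -5.06 in CMPs, 5.78 in adult heart, and 2.74 and 4.07 in fetal heart. It was dim on every CMP array, at least 1260-fold lower than in adult heart (adjusted p = 0.000333) and at least 241-fold lower than in fetal heart (adjusted p = 0.000203). Cpt2, the inner-membrane transferase, and Slc25a20, the carnitine-acylcarnitine carrier, were lower than in adult heart, with differences of -2.58 ± 0.26 and -2.27 ± 0.23. Against fetal heart they differed by -0.33 ± 0.20 (adjusted p = 0.236) and -0.03 ± 0.18 (adjusted p = 0.904), neither of which passed, and a second probe of Cpt2 gave 0.22.

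The 4 acyl-CoA dehydrogenases, which start each round of oxidation for acyl chains of different lengths, were lower in CMPs than in adult heart, with differences of -4.41 to -3.14, and 3 of them were lower than in fetal heart. Acadm, the medium-chain enzyme, had values of 3.88, 3.24, 3.60 and 3.30 in CMPs, 7.92 in adult heart, and 4.24 and 4.97 in fetal heart. All CMP values lay below both fetal hearts and far below the adult heart, by 2.14-fold (adjusted p = 0.0139) and 21.3-fold (adjusted p = 0.000542). Acadl, the long-chain enzyme, had values of 1.91, 1.60, 2.09 and 1.93 in CMPs, 5.62 in adult heart, and 3.46 and 4.38 in fetal heart, the largest called difference from fetal heart in the group at -2.04 ± 0.28 (adjusted p = 0.00268). Acads, the short-chain enzyme, was -0.96 ± 0.17 from fetal heart (adjusted p = 0.00672). Acadvl, the very-long-chain enzyme of the inner membrane, had values of 5.41, 5.57, 5.52 and 5.60 in CMPs, 8.69 in adult heart, and 5.05 and 5.94 in fetal heart. Its CMP values fell between those of the fetal hearts (0.03 ± 0.27, adjusted p = 0.929), while the difference from adult heart was -3.16 ± 0.35 (adjusted p = 0.00155).

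Of the 7 genes for the later steps of the spiral, 6 were lower in CMPs than in adult heart, and 4 were lower and 1 higher than in fetal heart. Hadhb, the thiolase subunit of the trifunctional protein, had values of 4.45, 3.93, 4.09 and 4.24 in CMPs, 8.58 in adult heart, and 5.31 and 6.05 in fetal heart. CMPs and hearts did not overlap, at 21.1-fold below adult (adjusted p = 0.000655) and 2.84-fold below fetal heart (adjusted p = 0.00658). Acaa2, the mitochondrial thiolase, differed from fetal heart by -1.97 ± 0.25 (adjusted p = 0.0022) and Hadh, the hydroxyacyl-CoA dehydrogenase, by -1.40 ± 0.24 (adjusted p = 0.00607). Echs1, the enoyl-CoA hydratase, differed by -0.63 ± 0.16 (adjusted p = 0.0234) and lost this call without the postmortem atrial, living ventricular or transgenic fetal array or with no variance trend (adjusted p 0.0592 to 0.102).

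Hadha, the other subunit of the trifunctional protein, and Decr1, the dienoyl-CoA reductase for unsaturated chains, differed from fetal heart by -0.54 ± 0.22 (adjusted p = 0.103) and 0.30 ± 0.19 (adjusted p = 0.24), which did not pass, and the other probe of Decr1 gave -0.31. Acaa1a is a thiolase of peroxisomes and the only one of the 7 that was not lower than in adult heart. Its values were 6.38, 6.32, 6.58 and 6.56 in CMPs, 6.09 in adult heart, and 5.72 and 5.94 in fetal heart. All CMP values lay above the hearts, by 0.63 ± 0.15 over fetal (adjusted p = 0.0189) and 0.37 ± 0.20 over adult heart, where it did not pass (adjusted p = 0.17). The first call was lost without any 1 of the CMP arrays (adjusted p 0.105 to 0.124).

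The electron transfer genes take electrons from the dehydrogenases to ubiquinone. Etfdh, the oxidoreductase at the end of this relay, had values of 3.21, 3.24, 3.32 and 3.20 in CMPs, 6.92 in adult heart, and 3.97 and 4.60 in fetal heart. The CMP arrays spanned 0.13 log2 units, all below the hearts, at 12.8-fold below adult (adjusted p = 0.000607) and 2.06-fold below fetal heart (adjusted p = 0.0109). Etfb, the flavoprotein's beta subunit, was lower in both comparisons, by differences of -2.71 ± 0.37 and -1.03 ± 0.28 (adjusted p = 0.0298 against fetal heart), the latter not passing with no variance trend (adjusted p = 0.0557). Etfa, the alpha subunit, was lower than in adult heart (-2.75 ± 0.28, adjusted p = 0.00125), and its difference from fetal heart of -0.65 ± 0.22 did not pass (adjusted p = 0.055).

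Among the genes of mitochondrial fuel control, Pdk2 and Pdk4 encode kinases that hold back pyruvate oxidation. Pdk2 had values of 1.70, 0.56, 1.24 and 1.06 in CMPs, 5.70 in adult heart, and 2.02 and 2.71 in fetal heart. CMPs did not overlap the hearts, at 23.6-fold below adult (adjusted p = 0.000746) and 2.34-fold below fetal heart (adjusted p = 0.0185), the latter not passing without the transgenic fetal array (adjusted p = 0.109). Pdk4 had values of 1.74, 0.26, 1.35 and 0.60 in CMPs, 3.63 in adult heart, and 1.14 and 2.26 in fetal heart. CMP and fetal values overlapped (-0.71 ± 0.36, adjusted p = 0.156), and adult heart was 6.23-fold above CMPs (adjusted p = 0.0065).

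Ucp3, an inner-membrane carrier of muscle, had values of -5.48, -3.94, -1.93 and -3.64 in CMPs, 1.75 in adult heart, and 1.36 and 1.61 in fetal heart. The postmortem atrial value was dim and the other 3 were above background, all far below the hearts. The differences were -5.50 ± 0.84 from adult (adjusted p = 0.00425) and -5.24 ± 0.65 from fetal heart (adjusted p = 0.00204). They include the dim value, so their size is not a measured one. The other probe of Ucp3 was dim on all 7 arrays. Acot2, the mitochondrial acyl-CoA thioesterase, had differences of -2.56 ± 0.43 from adult (adjusted p = 0.0056) and -1.79 ± 0.33 from fetal heart (adjusted p = 0.00777).

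Of the 6 transcriptional regulators, 5 were lower in CMPs than in adult heart, and 3 were lower and 1 higher than in fetal heart. Ppargc1a, the coactivator PGC-1 alpha, had values of -3.49, -4.71, -3.62 and -4.66 in CMPs, 3.88 in adult heart, and 2.17 and 3.31 in fetal heart. The atrial CMP arrays measured it and the ventricular ones did not. The differences were -7.99 ± 0.49 from adult (adjusted p = 0.000393) and -6.86 ± 0.38 from fetal heart (adjusted p = 0.000217). They include dim values, so their size is not a measured one, and a second probe of Ppargc1a was dim on all 4 CMP arrays. Ppargc1b, the related coactivator PGC-1 beta, had values of -6.05, -6.42, -5.97 and -5.88 in CMPs, 0.78 in adult heart, and -1.73 and -0.68 in fetal heart. It was dim on all CMP arrays, at least 39.0-fold lower than in adult heart (adjusted p = 0.000744) and at least 9.87-fold lower than in fetal heart (adjusted p = 0.000765).

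The estrogen-related receptors were unlike each other. Esrra had values of 3.46, 3.54, 3.43 and 3.59 in CMPs, 6.27 in adult heart, and 3.86 and 4.75 in fetal heart. All CMP values lay below the hearts, 6.82-fold below adult (adjusted p = 0.00219), but the difference from fetal heart of -0.80 ± 0.27 did not pass (adjusted p = 0.0529). Esrrg had values of -3.40, -5.97, -3.42 and -3.69 in CMPs, 1.27 in adult heart, and 0.41 and 1.49 in fetal heart. The postmortem ventricular value was dim, and the differences were -5.40 ± 0.74 from adult (adjusted p = 0.00304) and -5.07 ± 0.57 from fetal heart (adjusted p = 0.00153). They include that dim value, so their size is not a measured one.

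Of the PPARs, Ppard is expressed in most tissues and Ppara is the fatty acid receptor of liver, heart and muscle. Ppard had values of 2.21, 2.43, 2.64 and 3.08 in CMPs, 2.24 in adult heart, and 1.27 and 1.41 in fetal heart. All CMP values exceeded the fetal ones (1.25 ± 0.16, adjusted p = 0.00204), and adult heart lay within the CMP range (0.35 ± 0.20, adjusted p = 0.199). Ppara had values of -0.21, -0.30, -0.18 and 0.08 in CMPs, 2.41 in adult heart, and -0.71 and -0.10 in fetal heart. It was 5.91-fold lower than in adult heart (adjusted p = 0.00254) and overlapped fetal heart (0.25 ± 0.26, adjusted p = 0.473). Its other 2 probes gave differences of -1.19 and -1.38 from fetal heart and -5.46 and -6.35 from adult heart, so its probes disagree on the comparison with fetal heart.

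The window upstream of the gene start was searched for the hexamer AGGTCA, the core that PPAR, ERR and other nuclear receptors bind, on either strand in the 250 bases before each start. RefSeq promoters of GRCm38.p6 were matched by symbol for 32 of the 38 genes. The hexamer stood in the window of 6 of them (18.8%), against 15.8% of the 27025 genes in the table. TNAAGGTCA, the longer ERR element that contains the hexamer, was in none of the 32 and in 1.30% of all genes, and pairs of the hexamer separated by 1 base, with 1 mismatch allowed, were in none and in 0.566%. The hexamer's share thus lay near that of all genes. The 6 were Acadm, Acadvl, Cd36, Cpt1a, Echs1 and Ucp3. The windows of Cd36 and Acadm, lower in CMPs than in both hearts, and of Cpt1a, higher than in both, are shown 5′ to 3′ on the gene's strand to set a member of each direction side by side, with the hexamer or its reverse complement in capitals.
Cd36, GRCm38.p6 chr5:17835897-17836146, minus strand: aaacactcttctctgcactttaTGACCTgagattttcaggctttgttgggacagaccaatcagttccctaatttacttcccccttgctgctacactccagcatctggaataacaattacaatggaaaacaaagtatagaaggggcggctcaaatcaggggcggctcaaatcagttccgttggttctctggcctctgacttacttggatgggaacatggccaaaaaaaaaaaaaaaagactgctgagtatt
Acadm, GRCm38.p6 chr3:153944644-153944893, minus strand: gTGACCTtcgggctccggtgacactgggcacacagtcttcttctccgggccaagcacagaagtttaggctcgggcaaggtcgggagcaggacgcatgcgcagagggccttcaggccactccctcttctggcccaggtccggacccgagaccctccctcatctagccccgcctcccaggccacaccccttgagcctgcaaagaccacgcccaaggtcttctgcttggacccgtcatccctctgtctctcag
Cpt1a, GRCm38.p6 chr19:3323051-3323300, plus strand: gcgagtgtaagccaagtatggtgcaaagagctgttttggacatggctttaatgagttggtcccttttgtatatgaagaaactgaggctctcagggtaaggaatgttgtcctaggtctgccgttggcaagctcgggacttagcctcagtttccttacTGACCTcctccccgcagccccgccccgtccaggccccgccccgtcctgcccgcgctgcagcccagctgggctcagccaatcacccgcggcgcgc
In each of these 3 windows the hexamer lies on the opposite strand, beginning 228 bases before the start in Cd36, 249 in Acadm and 94 in Cpt1a. The match is a description of letters, and binding was not measured.

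Adult heart exceeded fetal heart for 25 of the 38 genes and was lower for 3, with a median difference of 1.98. Of the 20947 genes tested, 18.8% were called higher and 18.2% lower, with a median of 0.09. This comparison uses the same heart arrays as those above. Marker lists moved with it: 5 of 5 adipocyte markers tested were called higher in adult heart (median 4.43), as were 6 of 10 macrophage and leukocyte and 5 of 13 cardiomyocyte markers, while 4 of 7 erythroid markers were lower, and their part in the members' differences was not tested. All 4 acyl-CoA dehydrogenases were higher in adult heart, by 1.70 to 3.32, as were all 3 electron transfer genes, by 1.68 to 2.64, and 6 of the 7 later-step genes, with Acaa1a not passing (0.26 ± 0.22, adjusted p = 0.372). The largest differences were those of Lpl, 55.4-fold higher in adult heart (adjusted p = 0.00207), and Acsl1, 29.6-fold higher (adjusted p = 0.000808). Cd36 was higher by 3.62 ± 0.59 (adjusted p = 0.00829) and Pdk2 by 3.34 ± 0.41 (adjusted p = 0.00388).

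The 3 genes lower in adult than in fetal heart were Acsl3 (-3.22 ± 0.40, adjusted p = 0.00406), Fabp5 (-2.31 ± 0.38, adjusted p = 0.0086) and Acsl5 (-0.83 ± 0.23, adjusted p = 0.0383). Cpt1b was higher in adult heart by 2.38 ± 0.66 (adjusted p = 0.0395), while its relative Cpt1a differed by -0.57 ± 0.21 without passing (adjusted p = 0.0847). The regulators Ppara, Ppard and Esrra were higher in adult heart, by 2.81 ± 0.36, 0.90 ± 0.22 and 1.97 ± 0.37, whereas Ppargc1a (1.13 ± 0.53, adjusted p = 0.148), Ppargc1b (1.98 ± 0.62, adjusted p = 0.0543) and Esrrg (0.32 ± 0.81, adjusted p = 0.774) did not pass. Without the wild-type fetal array the members' median was 1.59, beside -0.02 for all genes, and the calls of Acsl5, Cpt1b, Pdk4 and Ppard were lost. Each was also lost under other settings: adjusted p 0.0576 to 0.0795 for Acsl5 (without the transgenic array too, on the heart arrays alone, or with no variance trend), 0.0611 to 0.0996 for Cpt1b (quantile normalization, mean of probes, no variance trend), 0.0511 to 0.0921 for Pdk4 (quantile normalization, no chamber term, no variance trend) and 0.0618 to 0.0651 for Ppard (no variance trend). The fit with no variance trend also lost Acadl, Hadh and Etfb (adjusted p 0.0513, 0.0599 and 0.0536) and called 22 in all. The fetal hearts were themselves at least 2-fold apart for 7 of the 38 genes, Cd36, Fabp3, Cpt1b, Pdk4, Ppargc1a, Ppargc1b and Esrrg. This lay near the share among all genes, 3636 of 24887 (14.6%). All 38 genes, and all 13 cardiomyocyte markers, had higher values in the transgenic than in the wild-type heart, and the cause was not tested.

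Of 60 other genes of fatty acid metabolism, 59 were on the array. Against fetal heart 14 were higher and 16 lower in CMPs of 53 tested, with a median of -0.07, shares near the 22.8% and 25.2% of all genes. Angptl4, a secreted inhibitor of lipoprotein lipase, was furthest above fetal heart (2.09 ± 0.34, adjusted p = 0.00493), with 3.33, 4.82, 6.82 and 7.08 in CMPs against 3.84 and 3.02 in fetal heart. The postmortem atrial value lay between the fetal ones and the other 3 above both. Acadsb and Acad11, acyl-CoA dehydrogenases, were higher by 1.86 ± 0.20 and 1.57 ± 0.21. Esrrb, the third estrogen-related receptor, was lower at -5.66 ± 0.51, as were Prkaa2, a catalytic subunit of AMP-activated kinase, at -5.31 ± 0.51, and Ucp2, a relative of Ucp3, at -5.26 ± 0.38; Esrrb was measured on 1 of the CMP arrays and Ucp2 on 3.

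Against adult heart 5 of these other genes were higher and 30 lower in CMPs of 55 tested, with a median of -1.38, beside 24.6% of all genes in each direction. Plin5, a lipid droplet protein of oxidative tissue, was dim in all CMPs and at least 2090-fold lower (adjusted p = 0.000189). Bdh1, an enzyme of ketone body use, and Esrrb had differences of -7.97 ± 0.74 and -7.91 ± 0.66. Bdh1 was measured on 3 of the CMP arrays and Esrrb on 1. Angptl4 (4.87 ± 0.43), the transporter gene Slc27a3 (3.65 ± 0.76) and the pyruvate dehydrogenase kinase Pdk3 (3.17 ± 0.27) were the most strongly raised. Between the hearts, 30 were higher in adult and 4 lower of 55 tested, with a median of 1.65, beside 18.8% and 18.2% of all genes. Plin5 (9.60 ± 0.49), the mitochondrial isomerase gene Ech1 (4.73 ± 0.25) and Lpin1 (4.39 ± 0.33), a phosphatidate phosphatase, were highest above fetal heart. Among the 4 called lower, Pdk3 (-4.22 ± 0.29), Angptl4 (-2.78 ± 0.48) and Acaca (-1.56 ± 0.27), the acetyl-CoA carboxylase of fatty acid synthesis, were lowest.

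Whether storage after death changed the pathway was asked by setting postmortem against living CMPs, 2 arrays each with chamber as a term. None of the 34 genes that could be tested was called by limma, against 0.105% of all 19012 genes tested; 6 members had an unadjusted p under 0.05, and adjusted p-values ran from 0.287 to 0.995. The median difference was -0.02, beside 0.01 for all genes. The largest were Fabp3 (2.52 ± 0.61, adjusted p = 0.287), Ucp3 (-1.92 ± 0.75, adjusted p = 0.44) and Lpl (-1.89 ± 0.46, adjusted p = 0.289), and the other 31 lay between -1.13 and 0.44. For the acyl-CoA dehydrogenases the differences ran from -0.25 to 0.11 and for the electron transfer genes from -0.04 to 0.17. Leaving out 1 CMP array gave 2 or 3 calls, 2 without the postmortem atrial or the living atrial array (Fabp3 and Esrrg) and 3 without the postmortem or living ventricular array (Fabp3, Lpl and Ucp3). The same fits called 415 of 20259, 507 of 19637, 1764 of 19874 and 1633 of 19609 genes in all, without the postmortem atrial, living atrial, postmortem ventricular and living ventricular array in turn, so the share among members was near that among all genes in the last 2. In those fits a single pair of cultures is compared and the spread comes from the fetal pair alone.

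Ventricular against atrial CMPs gave no call among 35 members tested by limma and none, 0%, among all 18912 genes tested, with 7 members and 1563 genes at an unadjusted p under 0.05. Member adjusted p-values ran from 0.198 to 0.999. Lpl was higher in the ventricular array of both pairs, by 1.85 in living and 3.69 in postmortem CMPs (2.77 ± 0.46, adjusted p = 0.198). Fabp3 was lower in both, by -0.99 and -3.12 (-2.05 ± 0.60, adjusted p = 0.463), and Acsl1 likewise by -0.74 and -1.41 (-1.07 ± 0.25, adjusted p = 0.354). Without the postmortem atrial or postmortem ventricular array Lpl alone was called, and without the living atrial or living ventricular array 7 members were called: Fabp3, Lpl, Acsl1, Acsl4, Pdk2, Pdk4 and Esrrg. Over all genes these fits called 418 of 19485, 427 of 19360, 1798 of 20051 and 1537 of 20283, in the same order, and they too compare 1 pair of cultures against the spread of the fetal pair.

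The postmortem difference was then compared between chambers, as the ventricular pair's difference minus that of the atrial pair. Of 34 members tested, 3 were called, against 2.41% of all 19012 genes. Fabp3 was higher in postmortem than in living CMPs, by 3.59 for the atrial and 1.45 for the ventricular pair, a difference of -2.13 ± 0.53 (adjusted p = 0.00469). Lpl was lower in postmortem than in living CMPs, at -2.81 for the atrial and -0.97 for the ventricular pair, a difference of 1.84 ± 0.54 (adjusted p = 0.0344). Ucp3 was at -3.55 for atrial CMPs, and at -0.29 for ventricular CMPs, a difference of 3.26 ± 0.89 (adjusted p = 0.0151). Its postmortem atrial value was dim, so the size of this difference is not a measured one. Esrrg was at 0.02 for atrial and -2.29 for ventricular CMPs, where the postmortem value was dim, and did not pass (-2.31 ± 0.94, adjusted p = 0.302).

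Each pair is 1 array against 1, so this test has 1 residual degree of freedom. It comes from the wild-type and transgenic fetal hearts and not from replicate cultures. limma shared that spread over genes by the variance trend, so the standard error did not follow a gene's own fetal gap. It was 0.53 for Fabp3 with a gap of 1.23, and 0.55 for Acsl5 with a gap of 0.02. All 4 CMP arrays enter this test, among them the postmortem atrial array that stood apart. Without any 1 of them the test has no value. Quantile normalization left none called, scaling over probes well above background on all arrays left 1 (Ucp3), and a fit with no variance trend left none. Ucp3 was also lost with normexp background correction and with the mean of its probes, and its difference ran from 0.80 to 3.30 over the alternatives (adjusted p up to 1). Lpl was also lost with no filter on dim probes (adjusted p = 0.0799), and under the stricter filter Ucp3 was not tested. Endothelial markers moved with the same contrast: 7 of 10 were called, all in the direction of Lpl and Ucp3, with a median of 4.00 for the list, and their summed signal was 20.7 and 32.3 in the postmortem and 44.3 and 26.2 in the living atrial and ventricular CMPs. Their part in the calls of Fabp3, Lpl and Ucp3 was not tested. Among the other fatty acid genes 4 were called higher and 1 lower of 51 tested, among them Slc27a3 (2.92 ± 0.54) and Pparg (-2.71 ± 0.68). Fabp7 and Bdh1 were called higher too, but their postmortem atrial values were dim and their differences have no measured size.

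**Figure D4:**
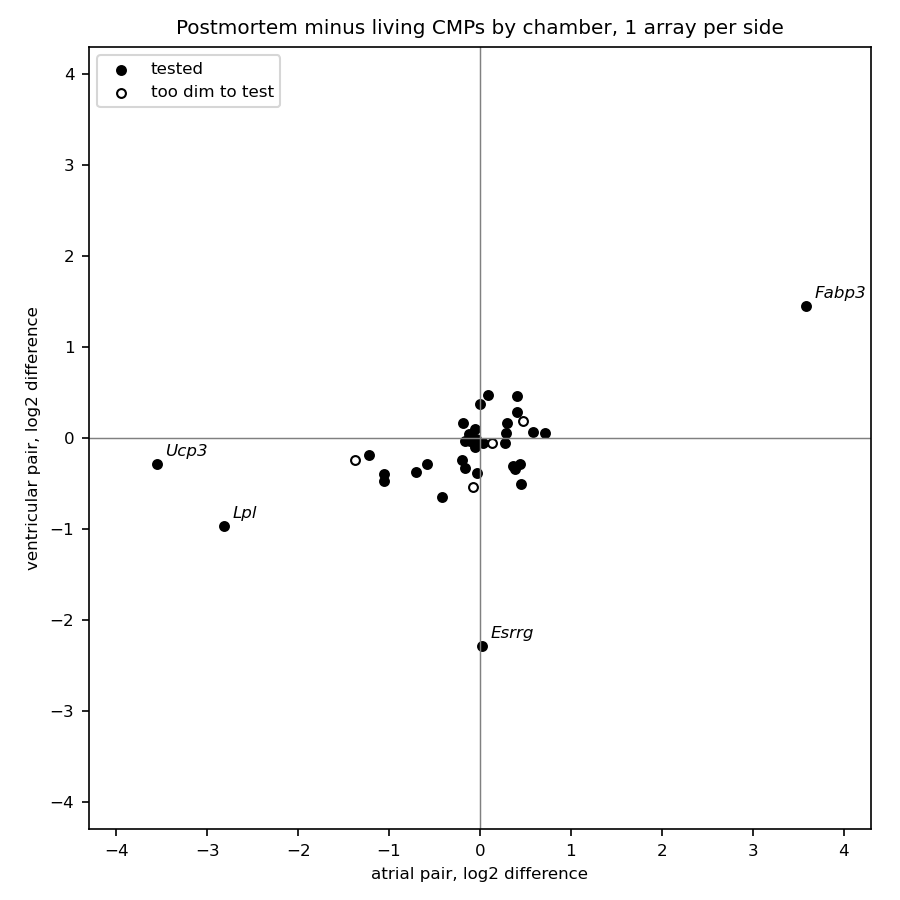
Postmortem minus living log2 difference of each of the 38 genes in the atrial pair (horizontal axis) and the ventricular pair (vertical axis), with 1 array per side; open points were too dim to test. Most genes lie within 1 log2 unit of 0 in both pairs, while Fabp3 (3.59 and 1.45), Lpl (-2.81 and -0.97) and Ucp3 (-3.55 and -0.29) lie out along the atrial axis and Esrrg along the ventricular one.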

How the data were processed

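RNA of 7 samples, 250 ng each, was hybridised to single-colour arrays. The authors deposited a scanner table per array from Agilent Feature Extraction (the file headers name version 10.7.3.1 and the submitters' processing notes 9.5.3), with linear intensity per spot; the processed intensity was background-subtracted and detrended per the file headers. The authors' deposited series table holds log2 values; its columns equalled log2 processed signal minus a constant for 99.5 to 99.6% of probes within 0.001, which settles its direction and shows no centring of genes. Its column medians ran from -4.25 to -3.60, and the choice of the constants is not given in the sources used here.

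Control spots and 813 of 59305 other spots with an outlier flag on any array (3 of the listed genes) were left out, and spots of a probe were averaged. The log2 processed signal minus the array's 75th percentile was taken, and a gene's probe of highest mean over all arrays stood for it; 13 of the listed genes have more than 1 probe. A gene was tested where 1 side or both had its probe well above background throughout. limma 3.58.1 (R 4.3.3) fitted 1 model with terms for the 4 groups and for chamber (2 residual degrees of freedom; 1 with the chamber interaction), with eBayes and a variance trend, two-sided, adjusted over all genes tested. The code of the fit was run on simulated data with the same mean on every array and independent noise, apart from genes changed by known amounts. Such data are simpler than the real arrays, so that run does not bear on the calls above. Bounds for dim genes use, per array, the gene's signal or the lowest signal flagged as well above background, whichever was higher. Alternatives changed the normalization, scaling, background correction (normexp, offset 50), source table, filter, probe rule, variance prior, arrays and terms.

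Atrial and ventricular arrays were matched across living and postmortem CMPs by the chamber term, from the labels. The listed genes, their roles, the list of other fatty acid genes and the marker lists were chosen with earlier results of these data known. All 38 genes are named, and from the other fatty acid genes up to 3 of the largest called differences per direction and comparison; the 4 named for the chamber comparison follow that rule. The number of arrays limits the precision.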

Additional observations from a re-analysis of the deposited data

Results flagged for a closer look

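Among the 4 CMP arrays, the postmortem atrial value of Etfa (5.03, against 4.68 to 4.74) stood apart, its gap to the nearest array being 0.830 of the whole range. The postmortem ventricular value of Esrrg (-5.97, dim, against -3.69 to -3.40) stood apart with a gap of 0.889 of the range. Both are above Dixon's 95% critical value for 4 samples, which chance passes in about 1 group in 20, and 38 genes were examined.

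The postmortem difference differed between chambers, as ventricular minus atrial, for Fabp3 (-2.13), Lpl (1.84) and Ucp3 (3.26), by the interaction term of limma. Each call was lost in 3 or 4 of the alternatives, each arm is 1 array, the spread comes from the fetal pair alone, and the postmortem atrial value of Ucp3 was dim, its difference ranging from 0.80 to 3.30.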

How the results depend on the processing

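Members called ranged from 22 to 30 against fetal heart, 30 to 37 against adult heart and 22 to 31 between the hearts over all alternatives run, and no called member changed direction. The lowest counts of CMP members came with the stricter filter on dim probes, which tested 32. Leaving out 1 array gave 0 to 3 members called in postmortem against living CMPs and 0 to 7 in ventricular against atrial CMPs, with 0 in each other alternative. For the postmortem difference by chamber, quantile normalization gave 0 members, scaling over probes well above background on all arrays 1, and no variance trend 0; the cause was not tested. A slide or scan block could not be fitted because there was 1 of each, nor could the chamber comparison without a CMP or fetal array or on the CMP arrays alone, nor adult heart comparisons without its array. No further paired analysis was possible because the chamber term already matches the CMP arrays, and the numbers of the heart arrays tie them to no CMP array. Values of dim genes are limited by the background.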
